A study of Homo sapiens with 4 samples.

Results

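Integrins of epithelial cells, 5 alpha chains (ITGA2, ITGA3, ITGA5, ITGA6 and ITGAV) and 5 beta chains (ITGB1, ITGB4, ITGB5, ITGB6 and ITGB8), were followed on 4 Affymetrix arrays of 2 human lung cancer cell lines. The members were all probe sets whose platform annotation gave one of these 10 symbols and no other. This rule found 28 of the 54675 probe sets, for 9 of the 10 genes. ITGB6 had no probe set under its symbol alone. Of the 28 probe sets, 17 passed the signal filter, a deposited signal of 27 or more (the 60th percentile over the arrays) on 1 or more arrays, and each of the 9 genes had at least 1 of them. The other 11 had signals of 2.993 to 17.02 and gave no ratio.

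The lines were NCI-H358, from a bronchioloalveolar carcinoma, and A549, from a lung adenocarcinoma. The groups were NCI-H358 with a CHST11 vector, NCI-H358 with an empty vector, A549 with a CHST11 vector and A549 with an empty vector, with 1 array each. All 4 cultures had been stably transduced and kept under antibiotic selection for 2 weeks, so the empty vector cells went through selection as well. The labels say neither whether the transduced cells were clones or pools nor which promoter drove CHST11, a Golgi sulfotransferase that puts sulfate on chondroitin chains.

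Integrins are cell surface receptors made of 1 alpha and 1 beta chain, and the pairing decides which matrix protein is bound. The beta1 chain pairs with many alpha chains, the beta4 chain only with alpha6, and the beta5, beta6 and beta8 chains with alphaV. In epithelia, alpha2beta1 binds collagen, alpha3beta1 and alpha6beta4 bind laminins of the basement membrane, alpha5beta1 binds fibronectin, and alphaVbeta6 and alphaVbeta8 bind latent TGF-beta.

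The 4 arrays had median signals of 15.9 to 16.31 and 75th percentiles of 85.21 to 88.18. The CHST11 probe set 219634_at had signals of 1058 in CHST11 and 220.1 in empty vector NCI-H358 cells (4.8-fold) and of 343.5 in CHST11 and 129.0 in empty vector A549 cells (2.66-fold), while the other 2 CHST11 probe sets had log2 ratios between -0.16 and 0.14. Of 6 epithelial markers tested, EPCAM (31.9-fold), KRT19 (20.3-fold) and CDH1 (4.69-fold) were higher in NCI-H358, and KRT8 (2.6-fold), KRT18 (2.17-fold) and KRT7 (1.35-fold) lower. All 6 passed the filter in both lines, with summed signals of 23050 to 23980 in NCI-H358 and 25520 to 26020 in A549. Of markers of other cell types, 1 of 6 fibroblast genes (COL1A1), 1 of 5 endothelial genes (PECAM1) and 3 of 5 leukocyte genes (CD3E, CD14, CORO1A) passed it in at least 1 line, with summed signals of 208.9 to 232.0, of 73.81 to 81.72 and of 77.33 to 132.8.

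Which integrin chains set the lines apart was asked first. NCI-H358 had more signal for ITGA2, the collagen-binding alpha chain, and for ITGA6 and ITGB4, the chains of the hemidesmosome receptor. It had less for ITGB5, a vitronectin receptor chain, for ITGA5, the alpha chain of the fibronectin receptor, and for ITGB1. The lines were compared with limma over 12271 genes, with terms for cell line and vector and Benjamini-Hochberg adjusted p-values. Of the 9 genes, 7 were called at an adjusted p of 0.05, 4 higher and 3 lower in NCI-H358. Of all genes, 64.5% were called, 33.9% higher and 30.6% lower, so a call was ordinary. Called with at least a 2-fold difference were 4 of the 9 members (ITGA2, ITGA5, ITGA6 and ITGB5), against 24.4% of all genes. The median size of the difference was log2 0.606 over the 9 members and 0.489 over all genes. The 2 arrays of a line carried different vectors and stand in for replicates of it. The error term is the difference between the lines in their vector ratio, so the p-values do not measure spread between cultures. With no filter on low signal, limma called 0 of the 7 (adjusted p = 0.0747 to 0.263). In cultures, fewer expressing cells and less RNA per cell cannot be told apart.

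**Figure D1:**
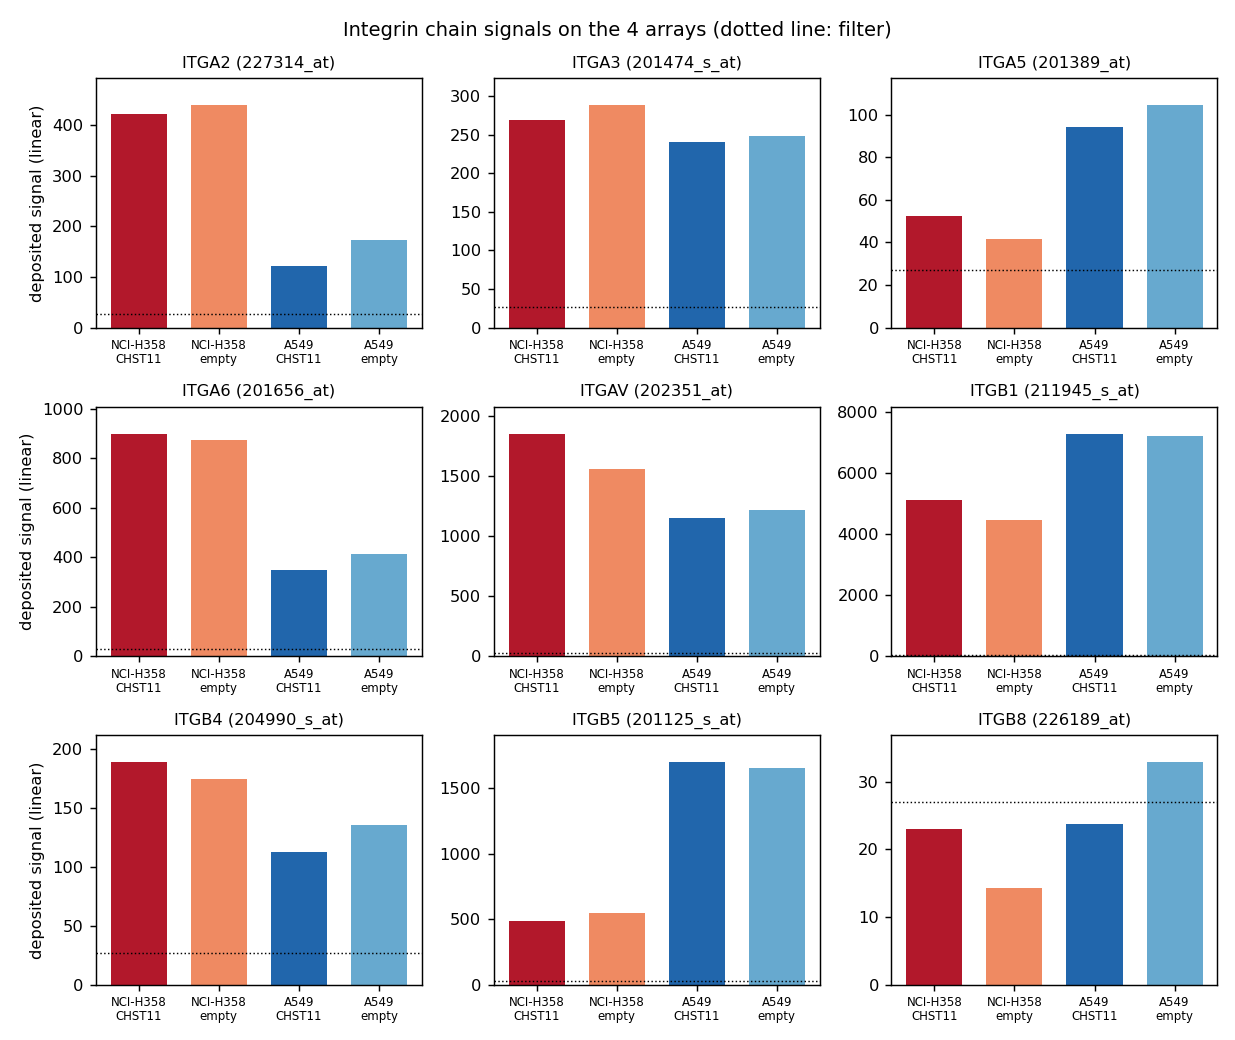
Deposited signal (linear, y axis from 0) of the probe set that represents each of the 9 genes, with 1 bar per array and no error bar since each group has 1 array; the dotted line is the filter at 27. Both NCI-H358 bars stand above both A549 bars for ITGA2, ITGA3, ITGA6, ITGAV and ITGB4, and below them for ITGA5, ITGB1, ITGB5 and ITGB8. ITGA3 and ITGB8 were not called, and the nearest ITGB8 bars are 23.09 in NCI-H358 and 23.73 in A549. The share of all genes with such separation was not counted.

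ITGA2 differed most among the alpha chains by its brightest probe set, though with the median of probe sets it was at log2 0.93, against 1.28 for ITGA6 and -1.09 for ITGA5. Probe set 227314_at had signals of 422.2 and 439.8 in NCI-H358 cells with CHST11 and with the empty vector, against 122.0 and 172.5 in A549 cells with CHST11 and with the empty vector. Both NCI-H358 arrays thus stood well above both A549 arrays, a fitted log2 difference of 1.57 (SE 0.135, limma adjusted p = 0.000818), or 2.97-fold. The other ITGA2 probe set, 205032_at, had 63.85 and 66.61 in NCI-H358 cells and 52.64 and 53.71 in A549 cells in the same order of vectors, a log2 difference of 0.295 (SE 0.096) and 1.23-fold. Both probe sets put NCI-H358 above A549, but the size of the ITGA2 difference was not settled between them.

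ITGA6, the laminin-binding partner of both ITGB1 and ITGB4, was measured by a pair of probe sets that gave similar differences. Signals at 201656_at were 900.5 in CHST11 and 873.0 in empty vector NCI-H358 cells, against 347.2 in CHST11 and 413.0 in empty vector A549 cells. The fitted log2 difference was 1.23 (SE 0.111, limma adjusted p = 0.000952), or 2.34-fold. At 215177_s_at the signals were 427.2 and 449.0 in NCI-H358 cells and 165.0 and 183.3 in A549 cells with CHST11 and with the empty vector, a 2.52-fold difference. The lines did not overlap at either probe set.

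ITGAV, the alpha chain shared by the receptors for vitronectin and latent TGF-beta, had signals of 1855 in CHST11 and 1556 in empty vector NCI-H358 cells and of 1150 in CHST11 and 1221 in empty vector A549 cells. It was higher in NCI-H358 by log2 0.52 (SE 0.118, limma adjusted p = 0.0169), a 1.43-fold difference that was 0.69 on the CHST11 arrays and 0.35 on the empty vector arrays. ITGA3, the alpha chain of an epithelial laminin receptor, had 269.4 in CHST11 and 288.3 in empty vector NCI-H358 cells, against 240.2 in CHST11 and 248.7 in empty vector A549 cells. Its log2 difference of 0.19 (SE 0.0877) did not pass the test (limma adjusted p = 0.121), although both NCI-H358 arrays stood above both A549 arrays.

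ITGA5, whose pair with ITGB1 is the main fibronectin receptor, was the 1 alpha chain lower in NCI-H358. Its signals were 52.37 in CHST11 and 41.66 in empty vector NCI-H358 cells, against 94.26 in CHST11 and 104.5 in empty vector A549 cells. The log2 difference was -1.09 (SE 0.142, limma adjusted p = 0.00285), or 2.12-fold lower. It was -0.85 on the CHST11 arrays and -1.33 on the empty vector arrays, so the first of these was under 2-fold.

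Among the beta chains, ITGB5 had the largest difference of all 9 members. At 201125_s_at its signals were 488.5 in CHST11 and 550.4 in empty vector NCI-H358 cells and 1699 in CHST11 and 1650 in empty vector A549 cells. It was 3.23-fold lower in NCI-H358, a log2 difference of -1.69 (SE 0.101, limma adjusted p = 0.000289). All 4 ITGB5 probe sets ran the same way. At 201124_at both NCI-H358 arrays, at 18.59 with CHST11 and 19.91 with the empty vector, were under the filter, against 225.6 and 222.4 in A549 cells with CHST11 and with the empty vector, so that with the dim side raised to the filter this probe set was at least 8.29-fold lower. The remaining ITGB5 probe sets were 2.33-fold lower (214020_x_at) and at least 1.52-fold lower (214021_x_at).

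ITGB1, the common beta chain, had signals at 211945_s_at of 5111 in CHST11 and 4461 in empty vector NCI-H358 cells, against 7299 in CHST11 and 7233 in empty vector A549 cells. It was lower in NCI-H358 by 1.52-fold (log2 -0.61, SE 0.0971, limma adjusted p = 0.00548). The probe sets 1553530_a_at and 1553678_a_at, which do not represent the gene in the fit, showed larger differences, 1.96-fold and 1.89-fold lower. ITGB4, a chain with a long cytoplasmic part that anchors keratin filaments at the hemidesmosome, was higher in NCI-H358, with 188.8 in CHST11 and 174.6 in empty vector NCI-H358 cells, against 112.5 in CHST11 and 135.1 in empty vector A549 cells. The log2 difference of 0.56 (SE 0.124, limma adjusted p = 0.0156) was a 1.47-fold one, and it rested on 204990_s_at alone, since the other 4 ITGB4 probe sets did not pass the filter.

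ITGB8, a chain of a latent TGF-beta receptor, was dim throughout. Its 1 probe set over the filter, 226189_at, had 23.09 in CHST11 and 14.37 in empty vector NCI-H358 cells and 23.73 in CHST11 and 32.94 in empty vector A549 cells, so a single array reached the filter. The line difference did not pass the test (log2 -0.53, SE 0.248, limma adjusted p = 0.121). It was -0.04 on the CHST11 arrays and -1.03 on the empty vector arrays.

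**Figure D2:**
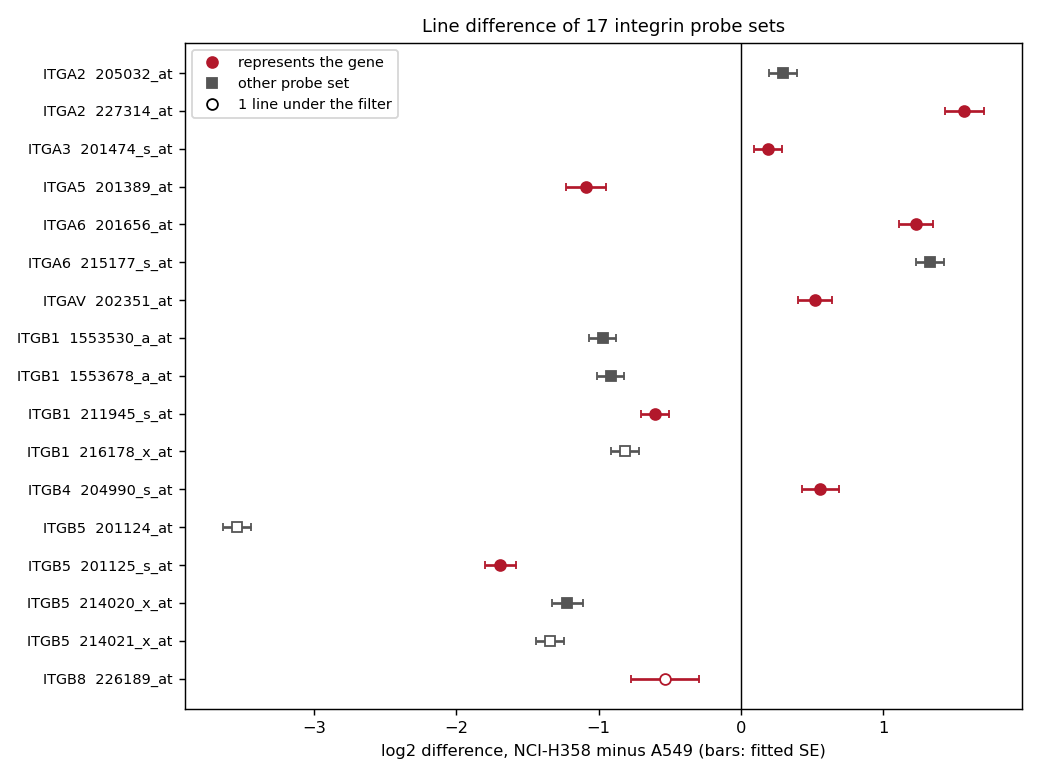
Fitted log2 difference between the lines (x axis, NCI-H358 minus A549; bars are the fitted SE) for the 17 probe sets over the filter, with open symbols where 1 line is under it; differences of open symbols are limited by the floor of 16.14. All 4 ITGB1 and all 4 ITGB5 probe sets lie below 0, both ITGA6 probe sets lie above 1, and the ITGA2 probe sets lie at 0.295 and 1.57.

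For the 4 members at least 2-fold apart between the lines, the 250 bases before a RefSeq start are shown to give the sequence in front of the genes that set the lines apart. RefSeq (GRCh38.p14) listed windows for 8 of the 10 genes, and where it listed several starts the one farthest downstream was taken, without knowledge of which start these lines use. The windows are chr5:52989102-52989351 on the + strand (ITGA2), chr2:172427336-172427585 on the + strand (ITGA6), chr12:54419267-54419516 on the - strand (ITGA5) and chr3:124887366-124887615 on the - strand (ITGB5), each written 5′ to 3′ on the gene's strand. Capitals mark the GC box GGGCGG, the core bound by Sp1 family factors, searched on both strands.
ITGA2: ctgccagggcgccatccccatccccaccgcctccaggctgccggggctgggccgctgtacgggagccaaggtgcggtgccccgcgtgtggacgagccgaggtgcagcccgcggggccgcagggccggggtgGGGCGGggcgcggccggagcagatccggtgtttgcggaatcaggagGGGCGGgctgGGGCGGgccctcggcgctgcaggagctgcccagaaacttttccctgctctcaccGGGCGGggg
ITGA6: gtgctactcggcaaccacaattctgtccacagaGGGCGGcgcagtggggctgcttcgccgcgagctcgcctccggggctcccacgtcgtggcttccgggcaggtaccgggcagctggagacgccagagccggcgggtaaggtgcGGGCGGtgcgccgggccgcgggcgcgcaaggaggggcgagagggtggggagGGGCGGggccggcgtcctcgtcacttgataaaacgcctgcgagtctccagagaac
ITGA5: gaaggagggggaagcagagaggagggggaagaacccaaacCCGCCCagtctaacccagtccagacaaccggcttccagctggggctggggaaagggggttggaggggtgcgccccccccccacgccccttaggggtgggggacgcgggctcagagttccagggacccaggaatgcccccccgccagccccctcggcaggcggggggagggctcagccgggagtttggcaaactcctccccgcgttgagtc
ITGB5: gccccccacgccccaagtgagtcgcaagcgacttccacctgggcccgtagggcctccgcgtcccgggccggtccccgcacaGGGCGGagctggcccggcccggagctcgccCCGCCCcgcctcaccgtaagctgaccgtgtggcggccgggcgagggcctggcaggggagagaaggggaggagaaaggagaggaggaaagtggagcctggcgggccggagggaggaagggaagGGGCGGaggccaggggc
The windows held 4 GC boxes for ITGA2 and 3 for ITGA6, the members higher in NCI-H358, and 1 for ITGA5 and 3 for ITGB5, the members lower there. Of all 35116 listed windows of this length, 42.6% held the box. The G and C content of the windows was 76.4%, 71.6%, 70.0% and 75.2% in the same order, and neither measure separated the members higher in NCI-H358 from those lower there.

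An integrin reaches the surface as a pair, so the differences were set side by side for the 9 pairs these chains form. In A549 both chains passed the filter for 8 pairs and in NCI-H358 for 7, the pair of ITGAV with ITGB8 being the one measured in A549 alone. ITGAV with ITGB6 could not be judged. Both chains were called in the same direction for 2 pairs, ITGA6 with ITGB4 (both higher in NCI-H358, log2 1.23 and 0.56) and ITGA5 with ITGB1 (both lower, -1.09 and -0.61). They were called in opposite directions for 4 pairs, ITGB1 with ITGA2, with ITGA6 and with ITGAV, and ITGAV with ITGB5. Over all genes, 33.9% were called higher and 30.6% lower in NCI-H358. How often any pair of genes was called in opposite directions was not counted. For ITGAV with ITGB5 the signal of the beta chain relative to that of the alpha chain was lower in NCI-H358 by a log2 change of -2.21, with -2.49 on the CHST11 arrays and -1.93 on the empty vector arrays. For ITGA2 with ITGB1 the same change was -2.18, with -2.30 and -2.05. For ITGA6 it was -1.83 against ITGB1 and -0.67 against ITGB4. These are changes in a ratio of 2 probe sets and say nothing of which chain has more RNA. They use the brightest probe set of each gene, and their sizes depend on that choice. The other ITGA2 probe set had a line difference of log2 0.295, against 1.57. Those of ITGB5 lay between -3.54 and -1.22. Several pairs share a chain, so they are not independent of each other.

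**Figure D3:**
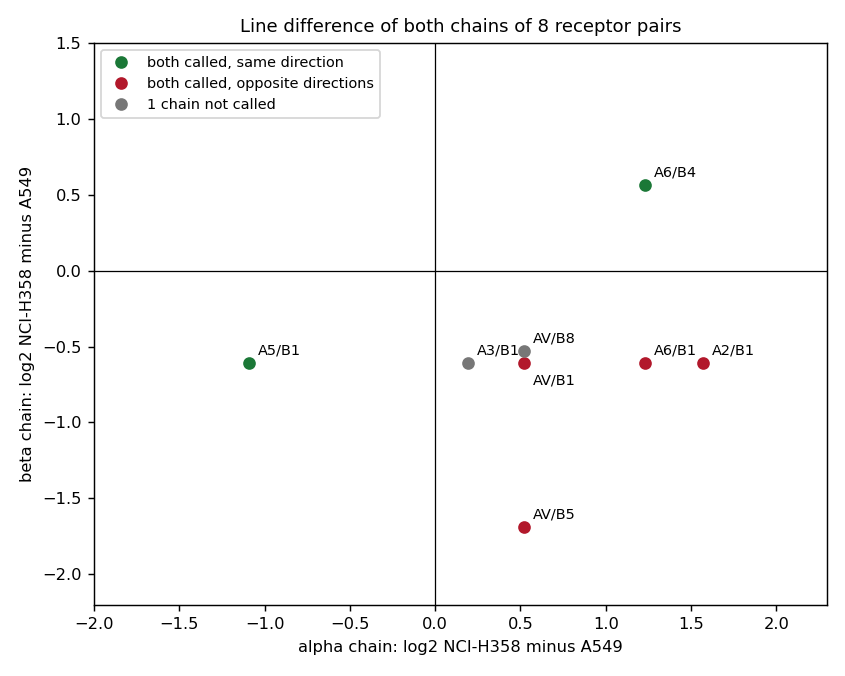
Fitted log2 difference (NCI-H358 minus A549) of the alpha chain (x axis) and of the beta chain (y axis) for the 8 receptor pairs with both chains in the fit; each point is a pair and names leave out ITG. A6/B4 lies upper right, A5/B1 lower left, and the 4 pairs called in opposite directions lie lower right.

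The study's own comparison, the CHST11 vector against the empty vector, gave no 1.5-fold difference in any integrin over the filter in either line; ITGB8 was under it in NCI-H358. In NCI-H358, 0 of the 8 measured members were at least 2-fold apart, against 0.0527% of all genes, and 0 were at least 1.5-fold apart, against 1.17%. In A549, 0 of 9 were at least 2-fold apart, against 0.114%, and 0 were at least 1.5-fold apart, against 1.21%. With 1 array per group there is no test within a line. Genes measured by more than 1 probe set served as a gauge, and their log2 ratios scattered around the mean of each gene with an SD of 0.173 in NCI-H358 and 0.158 in A549. Culture to culture variation is not in this gauge. The SD of the ratio over all genes was 0.195 and 0.18, so a ratio just beyond the gauge was ordinary.

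The share of all genes beyond the gauge in NCI-H358 was not counted, and their SD of 0.195 was wider than it. In NCI-H358, 3 of the 8 measured members lay beyond the gauge, all with more signal on the CHST11 array. These were ITGA5 (52.37 with CHST11 and 41.66 with the empty vector, log2 0.33), ITGAV (1855 with CHST11 and 1556 with the empty vector, 0.25) and ITGB1 (5111 with CHST11 and 4461 with the empty vector, 0.20). ITGB1 lay at 0.0635 and 0.0956 by its probe sets 1553678_a_at and 1553530_a_at, inside the gauge. The other members had ratios of 0.11 (ITGB4), 0.04 (ITGA6), -0.06 (ITGA2), -0.10 (ITGA3) and -0.17 (ITGB5), and a second ITGB5 probe set, 214020_x_at, had 0.352. Of the 8, 5 lay above 0 and 3 below, against 50.7% and 49.3% of all measured genes. Their median was 0.078 and that of all measured genes 0.003.

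In A549, 4 of the 9 members lay beyond the gauge, all with less signal on the CHST11 array. The share of all genes beyond the gauge was not counted here either, and their SD of 0.18 was wider than it. ITGA2 had 122.0 with CHST11 and 172.5 with the empty vector (log2 -0.50), while its other probe set had -0.029. ITGB8 had 23.73 with CHST11 and 32.94 with the empty vector (-0.47), the first of these under the filter. ITGB4 had 112.5 with CHST11 and 135.1 with the empty vector (-0.26), and ITGA6 had 347.2 with CHST11 and 413.0 with the empty vector (-0.25), with -0.152 at its other probe set. With the median of all probe sets of a gene, many of them on the floor, the ratio was -0.26 for ITGA2 and 0 for ITGB4 and ITGB8. ITGA5 (-0.15), ITGAV (-0.09) and ITGA3 (-0.05) also had less signal with CHST11, so all 5 alpha chains lay below 0, as did 45.3% of all measured genes. ITGB5 (0.04) and ITGB1 (0.01) lay just above 0, as did 54.7% of all measured genes. The median of the 9 members was -0.148 and that of all measured genes 0.013.

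Genes on a list of long mRNAs lay low in the same pair of A549 arrays. The list held 40 genes and was written with this shift already known. In A549, 35 of the 36 measured lay below 0 with a median log2 ratio of -0.626, against 45.3% and 0.013 over all measured genes. In NCI-H358, 26 of 36 lay above 0 with a median of 0.118, against 50.7% and 0.003. The ratio of 3′ to 5′ control probe sets in A549 was 2.14 with CHST11 and 2.4 with the empty vector for beta-actin, and 2.14 with CHST11 and 2.64 with the empty vector for GAPDH. In NCI-H358 the ratios were 2.32 with CHST11 and 2.06 with the empty vector for beta-actin, and 2.19 with CHST11 and 2.14 with the empty vector for GAPDH. The part of this shift in the integrin ratios of either line was not tested.

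**Figure D4:**
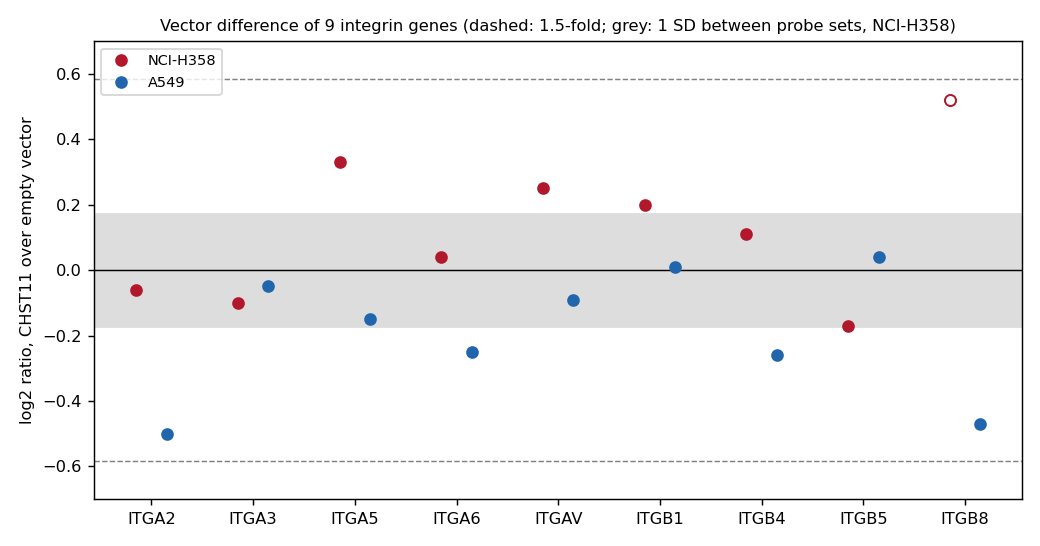
Log2 ratio of CHST11 over empty vector (y axis) for each of the 9 genes in NCI-H358 (left point of each pair) and A549 (right point); the open point is ITGB8 in NCI-H358, under the filter there, the grey band is 1 SD between probe sets in NCI-H358 and the dashed lines are 1.5-fold. No point reaches a dashed line, and the 4 A549 points below the band are ITGA2, ITGA6, ITGB4 and ITGB8.

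With the lines taken as repeats of the vector contrast, limma called 0 of the 9 members (adjusted p = 1 for each), and 0 had an unadjusted p under 0.05. Of all genes it called 0%, with 3.05% at an unadjusted p under 0.05 (374 genes) and 330 genes when eBayes used a trend. The member nearest to the threshold was ITGA2, with a fitted log2 difference of -0.28 (SE 0.135, limma unadjusted p = 0.0996). Of the 8 members measured in both lines, 4 (ITGA5, ITGA6, ITGAV and ITGB4) had a ratio above 0 in NCI-H358 and below 0 in A549, as did 23.9% of all genes. ITGA6 crossed 0 in NCI-H358 by its other probe set, at -0.0717. The widest gaps between the ratios of the lines in these 4 were 0.48 for ITGA5 and 0.38 for ITGB4. A difference between the lines in their response could not be tested, because it is the error term of the fit.

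Beyond the 10 chains, 16 other integrin genes were on the arrays and 5 passed the filter. ITGB3, another beta chain that pairs with ITGAV, did not pass it in either line. ITGAE, whose pair with ITGB7 binds E-cadherin, was 2.11-fold lower in NCI-H358, with 1046 in CHST11 and 967.9 in empty vector NCI-H358 cells, against 2123 in CHST11 and 2120 in empty vector A549 cells (log2 -1.08, SE 0.0908, limma adjusted p = 0.00077). Its partner ITGB7 was under the filter in both lines. ITGA1, a collagen-binding chain like ITGA2, had 50.6 in CHST11 and 35.42 in empty vector NCI-H358 cells and was under the filter in A549, which made it at least 1.57-fold higher. The remaining 3 were not called, with log2 differences of -0.225 for ITGA11, -0.0161 for ITGB2 and 0.0149 for ITGAD.

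Genes of the integrins' ligands were compared in the same fit, in which 33.9% of all genes were called higher and 30.6% lower in NCI-H358. Of 5 measured laminin chains, 2 were called higher and 3 were not called. LAMB3, the beta chain of the epithelial laminin bound by alpha3beta1 and alpha6beta4, was 10.9-fold higher, at 839.7 in CHST11 and 1006 in empty vector NCI-H358 cells and 72.4 in CHST11 and 99.12 in empty vector A549 cells. LAMC1 was 1.37-fold higher, while LAMB1, LAMA5 and LAMB2 were not called, with log2 differences of 0.23, 0.131 and 0.00398. Of 6 measured collagen chains, 4 were lower in NCI-H358, 2 were not called and none was higher, with a median log2 difference of -3.21 against 0.029 over all genes. These were the basement membrane collagens COL4A2 (at least 33.4-fold lower), COL4A1 (at least 15.8-fold), COL4A5 (at least 6.37-fold) and COL4A6 (at least 4.82-fold), all under the filter in NCI-H358. COL1A1 had a log2 difference of 0.0601 and was not called. COL4A4 was under the filter in NCI-H358 and differed by vector in A549, at 14.95 with CHST11 and 46.51 with the empty vector.

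Of 14 measured genes for other integrin ligands or with a part in TGF-beta latency, 8 were higher, 3 lower and 3 not called in NCI-H358. Over all genes, 33.9% were higher and 30.6% lower. TNC, tenascin C, was at least 41.6-fold higher, at 1206 in CHST11 and 1048 in empty vector NCI-H358 cells and 8.634 in CHST11 and 10.39 in empty vector A549 cells. NPNT, nephronectin, was at least 6.18-fold higher and THBS1, thrombospondin, 3.17-fold higher. SPP1, osteopontin, which alphaV integrins bind, was 13.6-fold lower, TGFB1 4.92-fold lower and the matricellular protein CCN2 2.06-fold lower. NPNT also differed by vector in both lines in opposite directions, with 223.3 in CHST11 and 136.1 in empty vector NCI-H358 cells (log2 0.71) and 18.85 in CHST11 and 29.46 in empty vector A549 cells (-0.64). ITGA8, its main known receptor chain, was under the filter on all 4 arrays. FBN1, fibrillin, had 44.55 with CHST11 and 82.14 with the empty vector in A549 (log2 -0.88), and 126 with CHST11 and 115.4 with the empty vector in NCI-H358.

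Of 20 measured adaptors that tie integrins to actin and to signalling, 11 were lower in NCI-H358, 3 higher and 6 not called, with 30.6% lower and 33.9% higher over all genes. Their median log2 difference was -0.52, against 0.029 over all genes. Lowest were the kinase SRC (4.38-fold lower), the parvin PARVB (3.97-fold) and the tensin TNS3 (3.08-fold). Higher were FERMT1, the kindlin of epithelia, which activates beta chains (2.95-fold), paxillin (PXN, 2.06-fold) and BCAR1 (1.98-fold). Of 8 measured tetraspanins and membrane partners, 6 were lower in NCI-H358, 2 were not called and none was higher, against 30.6% lower and 33.9% higher over all genes. CD151, the tetraspanin that binds alpha3 and alpha6 integrins, was 2.99-fold lower, with 274.0 in CHST11 and 304.9 in empty vector NCI-H358 cells, against 906.8 in CHST11 and 822.8 in empty vector A549 cells. SLC3A2 was 2.25-fold lower and BSG 1.87-fold lower. CD63 was 1.35-fold lower, while CAV1 and CD82 were not called (log2 0.224 and -0.105).

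Beside ITGB4, 3 further hemidesmosome genes were measured. PLEC, plectin, which links ITGB4 to keratin, was 2.62-fold higher in NCI-H358, with 358.7 in CHST11 and 392.0 in empty vector NCI-H358 cells, against 118.7 in CHST11 and 172.4 in empty vector A549 cells. DST was not called (log2 0.365) and had 241.3 with CHST11 and 377.5 with the empty vector in A549, a log2 ratio of -0.65. PLEC and DST are both on the list of long mRNAs. CD151 is also counted as a hemidesmosome gene and ran the other way from ITGA6, ITGB4 and PLEC.

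**Figure D5:**
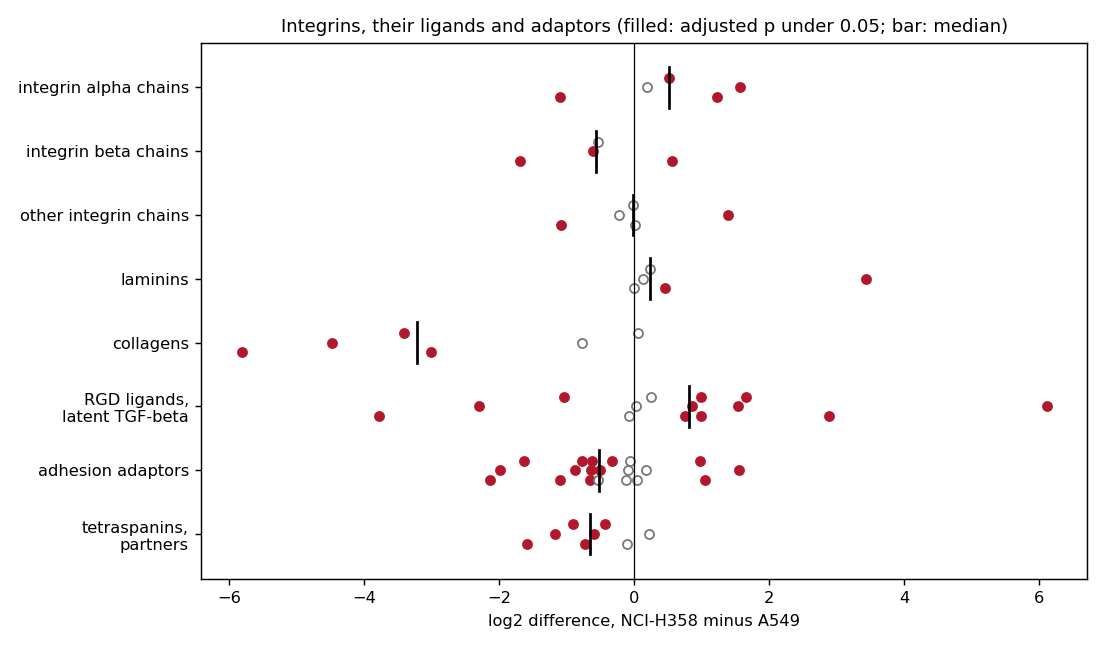
Fitted log2 difference between the lines (x axis, NCI-H358 minus A549) for each measured gene of 8 lists; filled points have a limma adjusted p under 0.05, the vertical bar is the list's median, and points of genes under the filter in 1 line are limited by the floor. The integrin chains lie between -1.69 and 1.57, while the collagens reach -5.81 and the RGD ligands 6.12.

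The profile most like that of ITGB5 over the 4 arrays, after centring each gene, was that of PSEN2, a presenilin, with a root mean square difference of log2 0.019 against a median of 0.876 over all measured genes. The next were GKAP1 (0.028), TNFRSF1A (0.034), TIMM22 (0.035) and WDR41 (0.038), with log2 line differences between -1.76 and -1.63. Over 4 arrays this likeness is mostly the size of the line difference.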

How the data were processed

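Array signal was measured in 4 cultures, 1 per group. The deposited values are linear intensities per probe set; per the submitters' processing notes they were made with MAS5, and version and scaling target are not given there. Groups were taken from the labels. Apart from 62 controls, which were dropped, the annotation named 1 gene at 41091 probe sets, no gene at 11721 and more than 1 at 1801. Intensities were floored at 16.14, the 50th percentile, and log2 was taken. Each of 19775 genes was represented by its brightest probe set (mean log2 over the arrays), and genes at 27 or more on at least 1 array were kept. limma 3.58.1 in R 4.3.3 (lmFit, eBayes) had 1 residual degree of freedom and a prior of 3.54; it was tested on simulated data. Where a line lay on the floor, the spread, and so the SE, is understated. Folds between lines raise the dimmer line to the filter and are then given as at least. Tables and plots used Python 3.11.15, NumPy 2.4.6, pandas 2.3.3 and matplotlib 3.10.9.

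The members and lists were chosen with earlier results of these data known. Named genes were all members, CHST11, and of each related list the 3 highest and 3 lowest by line difference and any at least 1.5-fold apart by vector. ITGB3, ITGB7 and ITGA8 are outside this rule and were named after their values were seen, as partner chains under the filter. The long mRNA list was added later from general knowledge, with the shift in these arrays already known. Alternatives were other normalizations (quantile, median centring, cyclic loess), floors, filters, probe set rules, a trend in eBayes and the arrays of 1 vector alone. The number of arrays limits the precision. Batches were not analysed here, as neither labels nor values name any.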

Additional observations from a re-analysis of the deposited data

Results flagged for a closer look

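ITGB8 had ratios of opposite sign in the lines, and the one in A549 was beyond the SD between probe sets. The log2 ratio of CHST11 over empty vector was 0.52 in NCI-H358 and -0.47 in A549, and the difference between the lines was not tested. The NCI-H358 value is limited by the floor, since both arrays there were under the filter. It is not set against the SD of that line, which came only from probe sets over the filter there.

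The 4 probe sets that carry the symbols LINC02478 and ITGB6 together were outside the comparisons. In NCI-H358, 3 of them had more signal with CHST11 than with the empty vector. In A549 this held for 226535_at, the only probe set of them over the filter there. Of all measured genes, 50.7% lay above 0 in NCI-H358 and 54.7% in A549. Probe set 226535_at had 765.1 in CHST11 and 667.2 in empty vector NCI-H358 cells, against 55.35 in CHST11 and 47.73 in empty vector A549 cells, so it was 13.9-fold higher in NCI-H358. Probe set 208084_at had 141.1 in CHST11 and 120.1 in empty vector NCI-H358 cells and was at least 4.82-fold higher there than in A549. Probe set 208083_s_at had 127.2 in CHST11 and 117.3 in empty vector NCI-H358 cells and was at least 4.52-fold higher. The accession given for 208083_s_at and 208084_at is a transcript of ITGB6 alone in RefSeq, while 226535_at has no such accession. The fourth such probe set, 239517_at, was under the filter on all arrays. The line differences of these probe sets were not tested.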

How the results depend on the processing

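The count of 7 members called between the lines stayed at 7 with quantile, median centring and cyclic loess normalization, a floor at the 25th percentile or none, a filter at the 75th percentile, a fit over all probe sets and eBayes with a trend, and was 6 with the median of probe sets, where ITGB4 fell under the filter. Over these settings the adjusted p-values of the called members were 7.95e-06 to 0.0249 in limma. With no filter, limma called 0 of them, 0 of the 4 at least 2-fold apart and 1905 genes in all, against 7909 in the main setting. Adjusted p-values of the 7 were then 0.0747 to 0.263 with the same differences, and 5638 of the 19775 genes fitted lay on the floor on all 4 arrays with no spread. Over all probe sets 13487 were called. Counts of all genes at least 1.5-fold apart by vector were 44 in NCI-H358 and 57 in A549 with the stricter filter, and 82 and 73 with the median of probe sets, against 133 and 138. No member reached 2-fold by vector under any alternative run, and none was called in the shared comparison. With the median of probe sets ITGA2 had a line difference of log2 0.93, ITGB5 had a vector ratio of 0.13 in NCI-H358, against -0.17, and the ratios of ITGB1, ITGB4 and ITGB8 in NCI-H358 were 0, since most of their probe sets lie on the floor there. In A549, 3 of the 4 ratios beyond the gauge moved under this setting, to -0.26 for ITGA2, against -0.50, to 0 for ITGB4, against -0.26, and to 0 for ITGB8, against -0.47. From the empty vector arrays alone 5 members were at least 2-fold apart between the lines, and from the CHST11 arrays alone 3. The shared vector comparison already sets each vector pair within its line. No paired analysis was possible because, for replicate numbers, each group has 1 array and the labels give none. Dim signal limits ITGB8 and most ITGB4 probe sets.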
